A study of Homo sapiens with 4 samples.

Results

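To describe m6A in introns, the intronic peaks of an m6A meRIP-seq experiment were followed from 1 replicate to the other in OE-19, an established line of adenocarcinoma of the esophagogastric junction (AEG). The cells were grown in RPMI1640 with serum, and the labels name no treatment or genotype. Of the 4 samples in the series, 2 were replicates of the m6A immunoprecipitation (IP) and 2 were input RNA, for which no peaks were analysed here. Each IP sample had 1 list of peaks, which are stretches of the genome where antibody-bound fragments pile up. The study calls the replicates biological, while the labels only number them and do not name separate cultures. The peaks described here were chosen by measured values: the summit of the replicate 1 peak, its highest point, lay inside a gene of GENCODE version 44 but in no exon, and the peak overlapped a replicate 2 peak by at least 1 bp. Of 24607 replicate 1 peaks, 3199 had an intronic summit, and 1267 of these (39.6%, 95% Wilson interval 37.9% to 41.3%) had such a partner among the 19318 peaks of replicate 2. Over replicate 1 peaks of all locations the share with a partner was 56.7%. Both shares follow from the rule and are given as a description. The 1932 intronic peaks of replicate 1 without a partner and the 12130 exonic peaks with one served for comparison. The lists hold no read numbers and the library depths are unknown, so all intervals and p-values below cover counting error among the peaks of these 2 lists only.

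m6A is written onto RNA in the nucleus, during or soon after transcription, by the METTL3-METTL14 methyltransferase, which prefers an A followed by C in sequences such as GGAC. In mature mRNA it is known to gather near stop codons and in long internal exons, whereas introns are transcribed and then mostly removed by splicing. The nuclear reader YTHDC1 binds m6A and is known for roles in splicing and on chromatin-associated RNA. The peak lists carry no strand, so a peak inside a gene may stem from that gene's RNA or from RNA of the opposite strand. Of the 7 epithelial marker genes checked, CDH1 and CLDN4 had an exonic peak in each replicate. Among 6 genes typical of other cells, COL1A1 had one in replicate 1 and none had one in replicate 2. Peaks hold no expression level, so this check says only which genes carried a peak.

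The peaks with the highest geometric mean fold enrichment in the 2 replicates are shown first, since they let the sequence under a strong intronic peak be read. Only peaks that touched no exon in either replicate, with all containing genes on 1 strand, were eligible, which left 634, and 1 peak per protein-coding host was kept. Each line below gives the hg38 sequence from 50 nt before to 50 nt after the replicate 1 summit, 5′ to 3′ on the strand of the gene. Capitals mark GGAC, the core of the m6A motif, and GTCC, which reads GGAC on the opposite strand.
PCSK6, chr15:101492595-101492695, minus strand: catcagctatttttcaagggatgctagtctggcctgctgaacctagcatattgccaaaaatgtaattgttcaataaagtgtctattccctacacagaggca
SLC9A3, chr5:490434-490534, minus strand: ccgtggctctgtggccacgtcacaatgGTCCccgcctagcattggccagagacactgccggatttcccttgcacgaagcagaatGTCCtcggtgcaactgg
PRDM16, chr1:3293127-3293227, plus strand: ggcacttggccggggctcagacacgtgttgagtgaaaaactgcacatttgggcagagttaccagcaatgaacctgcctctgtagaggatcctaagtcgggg
PTPRN2, chr7:157610392-157610492, minus strand: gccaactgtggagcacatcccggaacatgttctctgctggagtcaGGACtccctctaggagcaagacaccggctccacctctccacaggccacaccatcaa
PDE9A, chr21:42689780-42689880, plus strand: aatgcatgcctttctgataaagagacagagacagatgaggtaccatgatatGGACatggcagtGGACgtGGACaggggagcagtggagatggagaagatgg
GNB1L, chr22:19800721-19800821, minus strand: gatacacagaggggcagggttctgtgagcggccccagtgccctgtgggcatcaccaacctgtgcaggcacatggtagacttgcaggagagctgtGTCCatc
TAF1, chrX:71366913-71367013, plus strand: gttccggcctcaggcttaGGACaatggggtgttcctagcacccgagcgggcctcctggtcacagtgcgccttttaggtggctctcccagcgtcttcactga

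Of these 7 windows, those of PTPRN2, PDE9A and TAF1 held GGAC on the gene strand, those of SLC9A3 and GNB1L held it on the opposite strand, and those of PCSK6 and PRDM16 held it on neither. The windows shown are not those of the strongest 7 hosts in order, since TSNARE1, with GGAC on the gene strand alone, and DNAJC25-GNG10 are left out. Fold enrichment is the authors' ratio of the pileup at the summit over the local background of the peak caller. Its geometric mean over the 2 replicates was highest, among the eligible peaks, in PCSK6, which encodes a proprotein convertase. Its peak, chr15:101491024-101492757, was enriched 20.5-fold in replicate 1 and 16.8-fold in replicate 2, with summits 14 bp apart and 2661 bp from the nearest exon. The replicate 1 summit lay inside the gene but in no intron of its canonical transcript. No GGAC lay within 50 nt of that summit, but the peak as a whole held 8 on the gene strand and 11 on the other. SLC9A3 encodes a sodium-proton exchanger of the apical membrane of gut and kidney epithelium. Its peak in intron 2 of 16, chr5:488794-491472, had fold enrichments of 19.3 and 15.0 and filled 2679 bp in an intron of 3292 bp. GGAC occurred 17 times on its gene strand and 23 times on the other.

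PRDM16 encodes a zinc finger transcription factor known from brown fat and blood stem cells. Its peak lay in intron 3 of 16, an intron of 141014 bp, at 49040 bp from the nearest exon. Enrichment there was 17.2-fold in replicate 1 and 14.9-fold in replicate 2. PTPRN2, a receptor-type phosphatase family member of secretory vesicles, had its strongest peak in intron 15 of 22, with 16.0 and 14.1 and summits 5 bp apart. PDE9A, which encodes a phosphodiesterase that breaks down cGMP, had 15.0 and 13.2 in intron 3 of 19, and its window held GGAC 3 times on the gene strand. TSNARE1, a gene with a t-SNARE domain, had 17.2 and 14.8 in intron 11 of 13. In all 6 of these hosts the 2 replicates differed by 0.18 to 0.36 on the log2 scale, with replicate 1 the higher.

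Among the other 6 hosts, TAF1, which encodes the largest subunit of the general transcription factor TFIID, had 20.8 in replicate 1 but 6.80 in replicate 2, a log2 ratio of 1.62. Its peak filled 476 bp of the 1004 bp of intron 1. GNB1L, which encodes a protein of WD40 repeats, had 18.7 and 9.90 in intron 7 of 7. MCF2L had 15.4 and 8.86 in a peak of 4563 bp in intron 2 of 29, the widest of all 1267. DNAJC25-GNG10, a read-through gene that contains DNAJC25, had 15.5 and 9.57. The sequence within 100 nt of that summit matched at least 50 other places in the genome, the limit of the search, so reads there cannot be placed with confidence. MAPK8IP3, a scaffold of JNK signalling, had 13.2 and 10.8 in intron 4 of 31. The protein-coding gene ENSG00000256591 had 11.9 in both replicates. Among these 12 peaks the lowest value in either list was the 6.80 of TAF1.

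**Figure D1:**
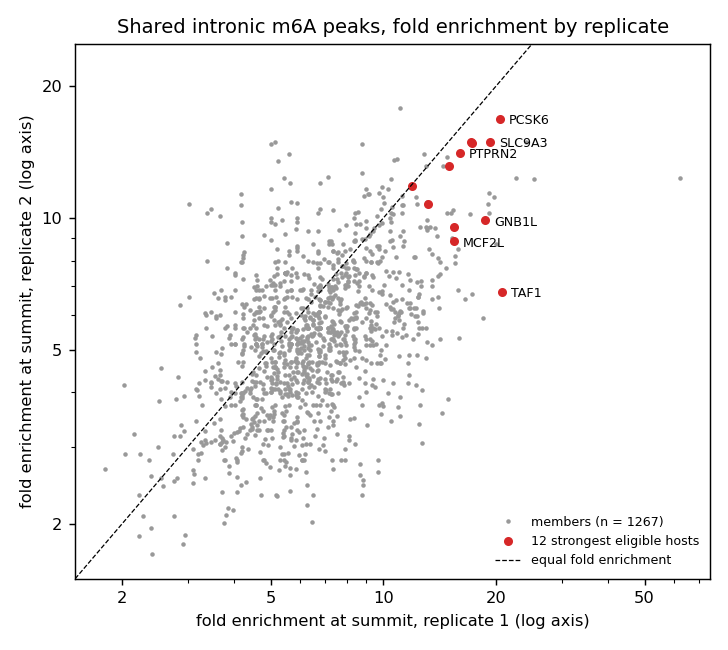
Fold enrichment at the summit in replicate 1 (x axis, log scale) against that of the overlapping replicate 2 peak (y axis, log scale), 1 point per shared intronic peak (n = 1267), with the 12 strongest eligible hosts in red. Most points lie below the dashed line of equal values, and 907 of the peaks were higher in replicate 1.

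Over all 1267 peaks, the median fold enrichment was 6.30 in replicate 1, with quartiles of 4.98 and 8.34, and 5.34 in replicate 2, with quartiles of 4.08 and 6.85. The intronic peaks without a partner had a median of 4.81 in replicate 1, and the exonic peaks with one had 6.54. These values belong to the lists from which the peaks were chosen and were not tested. The log2 ratio of replicate 1 to replicate 2 had a median of 0.27 (quartiles −0.07 and 0.65), and 907 peaks (71.6%) were higher in replicate 1. Across peaks, the log2 fold enrichments of the 2 replicates had a Pearson correlation of 0.495 and a Spearman correlation of 0.454 (n = 1267), given as a description, since peaks of 1 list share a library. Of the peaks, 616 (48.6%) had a fold enrichment of 5 or more both themselves and in the replicate 2 peak that they overlapped most, and 41 (3.24%) had one of 10 or more in both.

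The summits of a pair were a median of 40 bp apart (quartiles 16 and 91), and 975 pairs (77.0%) were within 100 bp. The partner summit was itself intronic for 1178 peaks (93.0%), while for 89 (7.02%) it fell in an exon. The peaks had a median width of 317 bp, against 169 bp without a partner and 467.5 bp for shared exonic peaks, and a wider peak has more room to overlap another. At the edge of the rule stood COL6A5, a collagen chain gene, whose peak met its partner over 9 bp with fold enrichments of 4.57 and 5.15. SLC25A44, a mitochondrial carrier gene, also had 9 bp, with 4.99 and 3.55, and RBPMS, an RNA-binding protein gene, had 6 bp, with 4.76 and 4.97. Just outside were peaks of SLC12A7, CAMSAP3 and SDF2, with gaps of 1, 7 and 10 bp to the nearest replicate 2 peak and replicate 1 fold enrichments of 2.79, 3.75 and 5.31.

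Next, the sequence around the summits was examined on the strand of the host gene, which the rule did not use. For 1142 peaks (90.1%) all containing genes lay on 1 strand. GGAC was present within 50 nt of the summit on the gene strand in 553 of them (48.4%, interval 45.5% to 51.3%) and on the opposite strand of the same windows in 407 (35.6%). The difference of 12.8 percentage points rested on 366 windows with the motif on the gene strand alone and 220 with it on the other strand alone (exact McNemar test, two-sided, p = 1.74e-09). With 1 peak per host gene the difference was 12.9 points (784 hosts, exact McNemar p = 5.54e-07). Over all intronic peaks of replicate 2, with or without a partner, it was 4.32 points (exact McNemar p = 2.84e-05), and over all those of replicate 1 it was 8.71 points (p = 9.05e-12).

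GGAC on the gene strand was more frequent among the peaks with a partner than among the 1740 single-strand intronic peaks without one, of which 657 (37.8%, interval 35.5% to 40.1%) held it. The difference was 10.7 points (interval 6.97 to 14.3, Fisher's exact test, two-sided, p = 1.71e-08, Benjamini-Hochberg adjusted p = 6.83e-08 over 4 tests). When the replicate 2 list was taken instead, 47.7% of its shared and 18.5% of its unshared intronic summits held GGAC, a difference of 29.2 points. The size of the contrast thus differed between the lists, with the larger drop among the unshared peaks of replicate 2. Compared with the shared exonic peaks, of which 6090 of 11525 (52.8%) held GGAC, the intronic share was lower by 4.42 points (interval of the difference −7.45 to −1.38, Fisher's exact p = 0.00469, adjusted p = 0.00625). That call was lost under 7 of 12 alternatives, among them a q-value of 1e-05 or less in both lists, where the difference was −1.04 points. On the opposite strand 29.0% of the shared exonic windows held GGAC. Their strand difference was 23.9 points, beside 12.8 points for the shared intronic peaks, and these 2 were not tested against each other.

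Flanking windows and other orders of the same letters were counted in the same way. In windows moved 1000 nt upstream, GGAC was present in 27.8% on the gene strand and 27.4% on the other, and in windows moved 1000 nt downstream in 28.9% and 26.8%. The 11 other orders of the letters A, C, G and G had strand differences from −2.71 to 3.42 points at the summits. The longer forms GGACT and TGGAC, which both contain GGAC, were present in 19.7% and 19.4% of windows on the gene strand against 11.1% and 10.9% on the other. Shared exonic peaks had 20.5% and 21.3% on the gene strand and 7.88% and 8.34% on the other, so the strands differed more there. The degenerate consensus DRACH (any base but C, a purine, A, C, any base but G) was common, in 84.0% of windows on the gene strand and 76.2% on the other. AATAAA, the main polyadenylation hexamer, lay in the 500 nt downstream of 14.6% of the summits on the gene strand and 16.5% on the other. These shares are descriptions of letters in the windows and do not show a modified base.

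**Figure D2:**
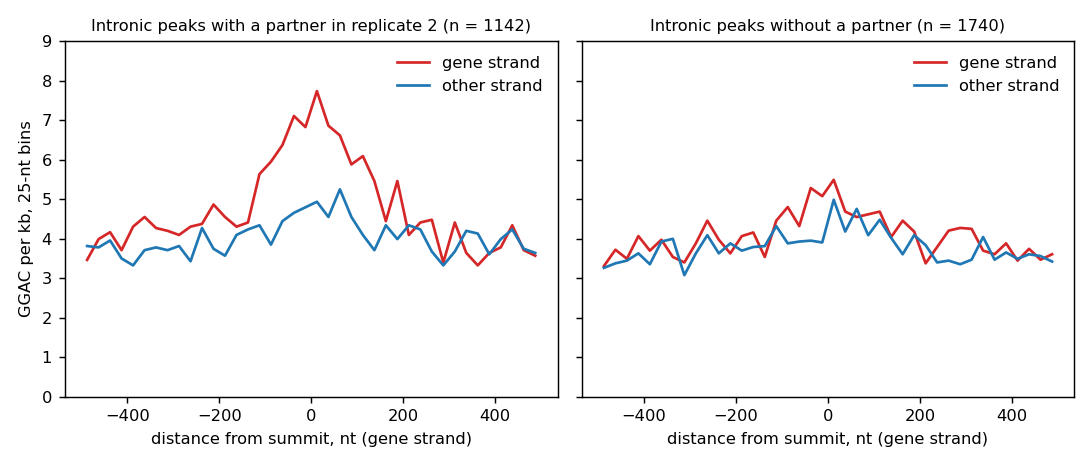
GGAC occurrences per kb in bins of 25 nt (y axis) by distance from the replicate 1 summit in nt along the host gene (x axis), for 1142 shared intronic peaks (left) and 1740 without a partner (right), on the gene strand (red) and the other strand (blue). On the gene strand the shared peaks reach 7.74 per kb at the summit and fall to a mean of 3.94 beyond 300 nt.

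The excess was centred on the summit. Within 50 nt, GGAC occurred 7.14 times per kb on the gene strand and 4.74 times on the other, and beyond 300 nt it occurred 3.94 and 3.80 times. Peaks without a partner had 5.14 per kb on the gene strand and 4.26 on the other within 50 nt. The strand difference varied with the GC content of the window, which had a median of 56.4% both with and without a partner. Among windows under 50% GC, 38.4% held GGAC on the gene strand and 18.6% on the other (n = 344), whereas at 60% GC or more 240 and 223 of 446 windows did. Peaks clear of every exon in replicate 1 had 48.9% and 33.5% (n = 836), and those touching an exon had 47.1% and 41.5% (n = 306). First introns (51.2% and 35.4%, n = 285) and later introns (49.4% and 35.1%, n = 698) were alike in value. In protein-coding hosts the shares were 49.7% and 36.8% (n = 918), and in lncRNA hosts 42.5% and 31.5% (n = 200). Differences between these strata were not tested.

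To place the peaks along their introns, the canonical transcript of each host was used, which held 1068 of the 1267 summits (84.3%) in an intron. First introns held 301 (28.2%, interval 25.6% to 31.0%), and second introns held 151 (14.1%). Among the 1704 placed peaks without a partner, 528 (31.0%) were in first introns. The difference of −2.80 points had an interval of −6.24 to 0.71 and did not pass (Fisher's exact test, p = 0.125, adjusted p = 0.125), and in the replicate 2 list it was 1.93 points. First introns made up 30.1% of the intron length of the hosts, averaged over the peaks, so the share of summits in them was close to their share of length. Last introns of hosts with at least 2 introns held 149 summits (14.0%), beside 10.0% of the length. For peaks without a partner these shares were 13.1% and 9.80%. The introns were long, with a median of 12169 bp (quartiles 4288 and 37074), and 97 summits (9.08%) lay in introns of over 100 kb. The median was 9774 bp in protein-coding hosts alone, and 10950 bp for peaks without a partner.

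Between the splice sites the summits lay somewhat towards the start of the intron. Their relative position had a median of 39.3% of the intron length, where 0 is the 5′ splice site. Of the 1068, 630 (59.0%, interval 56.0% to 61.9%) were nearer the 5′ splice site than the 3′ splice site, and among introns of 2000 bp or more it was 540 of 925 (58.4%). Peaks without a partner had 58.1%, so this placement was shared by both sets of intronic peaks. The distance to the 5′ splice site had a median of 3723.5 bp and that to the 3′ splice site 5602 bp.

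**Figure D3:**
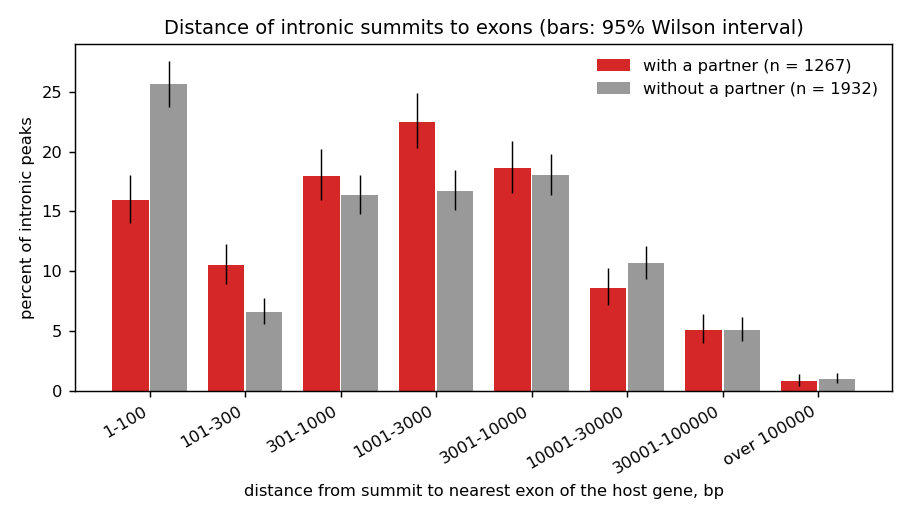
Percent of intronic summits (y axis) in each class of distance to the nearest exon of the host gene in bp (x axis), with a partner (red, n = 1267) and without (grey, n = 1932), with 95% Wilson intervals as vertical lines. Within 100 bp of an exon stand 15.9% of the shared and 25.6% of the unshared summits.

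The distance to the nearest exon of the host gene had a median of 1320 bp (quartiles 267 and 4633) and reached 149780 bp. Within 500 bp of an exon lay 415 summits (32.8%, interval 30.2% to 35.4%), beside 22.3% of the intronic length of the hosts. In the closest class, within 100 bp, there were 202 shared summits (15.9%, interval 14.0% to 18.1%) and 495 unshared ones (25.6%, interval 23.7% to 27.6%), a difference that was seen after the data were examined and was not tested. More than 5000 bp from any exon of the host lay 296 summits (23.4%). The peaks themselves reached further than their summits: 360 (28.4%) touched an exon in replicate 1, and 876 (69.1%) touched none in either replicate. For peaks clear of exons in replicate 1, the share within 500 bp was 14.1% and the median intron length 15524 bp. At peaks that touch an exon, the lists cannot tell reads of spliced mRNA from reads of intronic RNA.

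The 1267 peaks lay in 863 host genes, of which 698 (80.9%) were protein-coding and 145 (16.8%) were lncRNA genes. The protein-coding hosts were 3.48% of the 20046 protein-coding genes of the annotation. Most hosts, 661 (76.6%), held 1 peak, 121 held 2, and 28 held 5 or more with 189 peaks in all. The same intron often held several, and 403 peaks fell in 152 introns with 2 or more. Of the 698 protein-coding hosts, 453 (64.9%, interval 61.3% to 68.4%) also had a shared exonic peak, against 31.9% of all protein-coding genes, which include genes with no RNA in these cells. Among the 988 protein-coding genes that hosted unshared intronic peaks alone it was 566 (57.3%). By peak, 787 of 1267 (62.1%) lay in a host with a shared exonic peak, against 1092 of 1932 (56.5%) of those without a partner. The difference of 5.59 points had an interval of 2.11 to 9.04 (Fisher's exact test, two-sided, p = 0.00180, adjusted p = 0.00360). It was 40.1 points in the replicate 2 list. The call was lost under 6 of 10 alternatives, among them protein-coding hosts alone (3.51 points) and a q-value of 1e-05 or less, where the difference was −1.28 points. Both the intronic and the exonic peaks compared here were chosen by overlap between the 2 lists, so they are linked by the rule. The test cannot separate that link from one between intronic and exonic peaks, and no conclusion is drawn from it. In hosts with a shared exonic peak 54.1% of windows held GGAC on the gene strand and 37.8% on the other (n = 719), and in hosts without one 38.8% and 31.9% (n = 423).

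PTPRN2, at the end of the long arm of chromosome 7, held the most peaks. Of its 35 intronic peaks in replicate 1, 18 had a partner, and they spread over 1001493 bp in introns 1, 2, 11, 15 and 21 of 22. Their fold enrichment ranged from 4.21 to 16.0 in replicate 1 (median 7.61) and from 4.20 to 14.1 in replicate 2 (median 6.15). None of the 18 touched an exon in replicate 1. GGAC lay within 50 nt of the summit on the gene strand alone in 3, on the other strand alone in 3, on both in 4 and on neither in 8. Over the whole of the peaks it occurred 88 times on the gene strand and 92 times on the other. A single peak of 3271 bp held 51 and 31 of these. Repeated 12-mers made up 90.8% of the sequence within 250 bp of its summit. The totals depend on this repeat and are not read as a balance of the strands. In the summit windows the pooled strand difference was not seen within this host. With 3 windows on each strand alone, the counts are too few to show that it was absent.

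GNB1L on chromosome 22 held 9 peaks within 7847 bp, 7 of them in its last intron. Fold enrichments ranged from 4.11 to 18.7 in replicate 1 and from 2.69 to 9.90 in replicate 2. GGAC stood on the gene strand alone in 2, on the other strand alone in 6 and on both in 1, although no gene was annotated on the opposite strand there. The plus-strand genes GPR78, which encodes an orphan G protein-coupled receptor, and CPZ, a carboxypeptidase gene, overlap, and both contained 7 peaks within 9485 bp. They are counted under GPR78, although none lay in an intron of its canonical transcript. Of these 7, 1 held GGAC on the gene strand alone and 4 on the other alone. Fold enrichments ran from 4.02 to 17.2 in replicate 1 and from 3.74 to 10.3 in replicate 2. No shared exonic peak was found in GPR78, and whether CPZ held one is not given here. MCF2L held 9 peaks, 6 of them in intron 1 of 29, with GGAC on the gene strand alone in 4 and on the other alone in 4. Of the former, 1 lay also in the antisense gene MCF2L-AS1. Over all 9 peaks of MCF2L the motif occurred 80 times on the gene strand and 54 times on the other. The widest, of 4563 bp, held 23 and 24. A peak of 971 bp held 26 and 2, with repeated 12-mers over 33.5% of the sequence within 250 bp of its summit. PCSK6, PRDM16, TBC1D16 (a Rab GTPase-activating protein) and TSNARE1 held 7 each. In PRDM16, 6 of the 7 were in intron 3, and 1 of these summits had repeated 12-mers over 92.7% of the sequence within 250 bp. In TSNARE1 all 7 lay within 7853 bp of introns 11 and 12. TBC1D16 had the weakest set of these 8 hosts, with medians of 4.20 and 3.89.

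**Figure D4:**
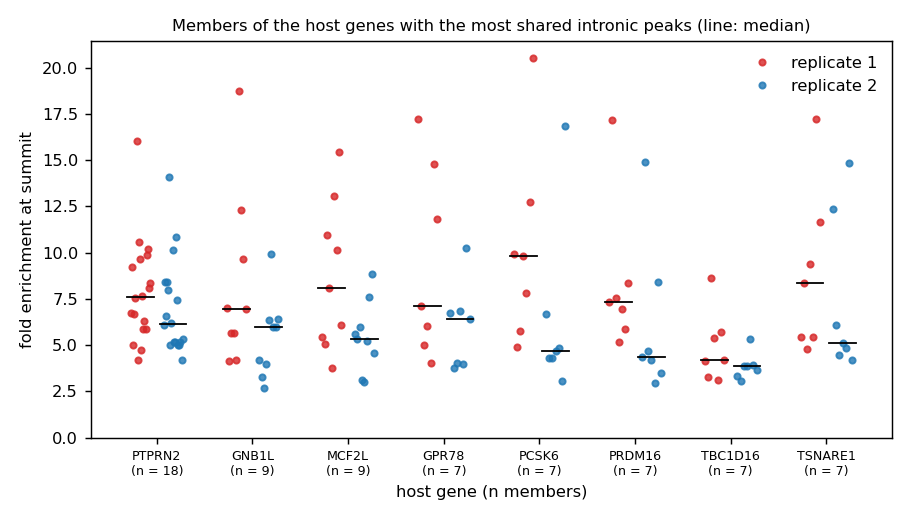
Fold enrichment at the summit (y axis) of each shared intronic peak in the 8 protein-coding hosts with the most peaks (x axis), for replicate 1 (red) and replicate 2 (blue), with black lines at the medians. The PTPRN2 peaks have medians of 7.61 and 6.15, and the TBC1D16 peaks of 4.20 and 3.89.

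Other hosts were picked after their values were seen, because their peaks leaned to 1 strand. In MIR3667HG, a lncRNA gene on chromosome 22, GGAC stood on the gene strand alone in 5 of 11 peaks, on both strands in 3 and on the other strand alone in 0. LMF1, which encodes a lipase maturation factor in the endoplasmic reticulum, had 5 of 6 peaks with the motif on the gene strand alone and 1 on the other alone. The lncRNA gene ENSG00000229618 had 6 of 8 and 1, and ABR had 3 of 5 and 0. PNPLA7, which encodes a lysophospholipase, had 4 of 6 and 1. Other hosts, also named after their values were seen, leaned the other way. KSR1 had the motif on the other strand alone in 4 of 4 peaks, and AMZ1 in 3 of 4. Neither had a peak with it on the gene strand alone. Across hosts, the motif stood on the same strand in 76 of 131 pairs of neighbouring peaks of 1 host that held it on a single strand (58.0%, interval 49.5% to 66.1%). Hosts thus leaned either way or held peaks of both kinds, and whether any peaks came from RNA of the opposite strand was not tested.

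Shared intronic peaks were then counted in gene lists. Of 22 genes of the m6A machinery (writers, erasers and readers), 17 had a shared exonic peak and 1 held a shared intronic one. Over all protein-coding genes the shares were 31.9% and 3.48%. The intronic one was in YTHDC1, the nuclear reader, with 7.51 in replicate 1, 7.26 in replicate 2 and summits 4 bp apart. Its peak, chr4:68321390-68321686, lay in intron 11 of 16, 994 bp from the nearest exon, and held GGAC 3 times on the gene strand and 0 times on the other. Among transcription factors of the gastrointestinal lineage, GATA4, a factor of foregut development, held a shared intronic peak with its summit 5 bp from an exon, with 9.83 in replicate 1 and 4.68 in replicate 2. Among 6 nuclear lncRNAs, of which 5 were in the annotation, PVT1 held 2, with 4.48 and 3.89 at the first and 8.76 and 4.80 at the second.

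No shared intronic peak was found in 20 genes of SR proteins and splicing kinases, of which 9 had a shared exonic peak. The same held for 13 genes known for regulated retained introns (6 with a shared exonic peak), for 8 G1-S genes that the study followed (4) and for 14 receptor tyrosine kinases (10). Any intronic peak of replicate 1 was present in 0, 0, 2 and 2 genes of these lists. Beside the 3.48% of protein-coding genes that hosted a shared intronic peak, counts of 0 in lists of 8 to 20 genes are near the background. For any intronic peak of replicate 1 no such background share was computed. Nothing is read from the counts in any of the gene lists.

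**Figure D5:**
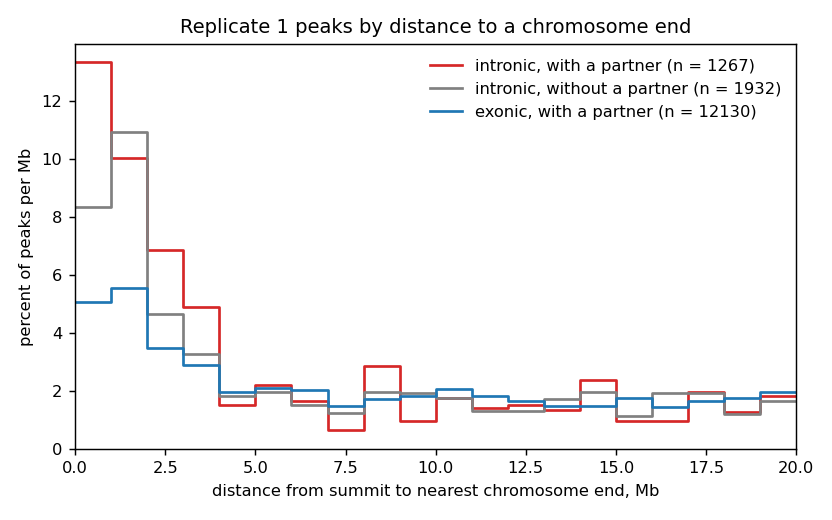
Percent of replicate 1 peaks per Mb (y axis) by distance of the summit from the nearest chromosome end in Mb (x axis), for intronic peaks with a partner (red), intronic peaks without one (grey) and shared exonic peaks (blue). The shared intronic peaks have 13.3% in the first Mb and 1.50% in the fifth.

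Many of the peaks lay close to chromosome ends, a pattern noticed in the data and described without a test. Within 5 Mb of an end were 464 of the 1267 summits (36.6%, interval 34.0% to 39.3%), against 560 of the 1932 without a partner (29.0%, interval 27.0% to 31.0%) and 2301 of the 12130 shared exonic summits (19.0%, interval 18.3% to 19.7%). The same regions held 7.25% of the intronic base pairs of the annotation. The first 5 Mb held 13.3%, 10.0%, 6.87%, 4.89% and 1.50% of the peaks in turn. Counts were highest at the starts of chromosomes 11 and 16, where the coordinates begin, with 28 each, and at the start of chromosome 1, with 26. By chromosome, 7 held the most, 121 peaks (9.55%). GGAC was present on the gene strand in 57.2% of windows near an end and on the other in 38.9% (n = 432), and in 43.1% and 33.7% of those farther away (n = 710).

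Copies of the sequence can move reads between places. For 224 peaks (17.7%, interval 15.7% to 19.9%) the sequence within 100 nt of the summit matched another place on the primary chromosomes with at least 95% identity over at least 90% of the window, against 250 (12.9%, interval 11.5% to 14.5%) without a partner. In CCDC200, ENSG00000255367, ENSG00000280441, ENSG00000283294 and ALG1L9P, named after their values were seen, this held for all 6 shared intronic peaks of each host, so the lists cannot tell from which copy the reads came. Repeated 12-mers made up over 20% of the sequence within 250 bp of the summit for 86 peaks (6.79%) and for 102 without a partner (5.28%). In these tandem-repeat peaks the motif was present in 43.0% of windows on the gene strand and 16.5% on the other (n = 79).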

How the data were processed

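m6A meRIP-seq of OE-19 cells was analysed, with groups taken from the sample labels (2 m6A IP and 2 input samples). The study's methods describe DNase treatment and fragmentation of purified total RNA, the labels UV-fixed and lysed cells. The kit named in the labels is a directional one, but the deposited lists hold no strand. Reads were mapped to hg38 by the authors, with TopHat2 in the methods and HISAT2 (with fastp) in the submitters' processing notes, and peaks were called per sample with MACS2. Versions, and whether the input served as control, are not given in the sources used here. The authors deposited for each peak a fold enrichment (a ratio over the caller's local background), −log10 p-values and −log10 q-values, a score and the summit offset. With highest q-values of 0.0491 and 0.0497, the 2 lists end at 0.05. Fold enrichment depends on local background and, for introns, on how much unspliced RNA was present, so it is not an m6A level.

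Summits were placed with GENCODE version 44 (62700 genes), coordinates 1-based. A summit in any exon of any gene was exonic. Where several genes contained a summit, protein-coding genes took precedence as host, and the motif tests and pooled shares used only peaks whose containing genes lay on 1 strand. Counts within single hosts used all peaks of the host, on its strand. Motifs were searched in the hg38 reference within 50 nt of the summit. Strands of the same window were compared with an exact McNemar test, and sets of peaks with Fisher's exact test, two-sided, adjusted by Benjamini-Hochberg over 4 tests. A further planned test, on repeat-masked summits, was not run, since the reference letters carry no masking. Intervals are 95% Wilson intervals, and those of differences are Newcombe intervals. Peaks of 1 host are not independent, so 1 peak per host was an alternative, beside stricter q-values and fold enrichments, other overlap rules, midpoints, exon contact, protein-coding hosts, other windows and transcripts, the replicate 2 list, and each replicate left out.

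The genes named were the 12 strongest eligible hosts, the protein-coding hosts with the most peaks (6 planned, 8 with ties), peaks in the gene lists, and the peaks nearest the overlap threshold, beside those said to be named later. A few items that these rules select are not reported here. The peaks and lists were chosen with earlier results of these data known. Scripts were tested on simulated data. Copies were found with minimap2 2.31, and the other steps used pysam 0.24.0, scipy 1.17.1, numpy 2.4.6, pandas 2.3.3, matplotlib 3.10.9 and Python 3.11.15.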

Additional observations from a re-analysis of the deposited data

How the results depend on the processing

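The GGAC difference between strands (4.32 to 16.2 points over 13 alternatives) and that between intronic peaks with and without a partner (6.83 to 29.2 points over 12) kept their direction and passed the threshold throughout. The number of shared intronic peaks was 801 at a q-value of 1e-05 or less and 623 when both lists were first limited to a fold enrichment of 5 or more, so that any remaining replicate 2 peak could be the partner, and without replicate 1 or 2 the intronic peaks numbered 3199 to 3845, since no partner was then asked for. The lower GGAC share than in exonic peaks no longer passed at q of 1e-05 (−1.04 points), fold enrichment of 5 (−4.14), an overlap of 50% of both peaks (−3.59), summits within 100 bp (−3.40), midpoints (−2.52), protein-coding hosts (−3.23) and a window of 25 nt (−2.06). The first intron difference was 1.93 points in the replicate 2 list. The difference in hosts with a shared exonic peak no longer passed at q of 0.01 (3.85 points), fold enrichment of 5 (0.34), an overlap of 50% (4.22), summits within 100 bp (4.02) and protein-coding hosts (3.51), and at q of 1e-05 it was −1.28. That difference is linked to the rule, which also asked for overlap between the 2 lists, and no conclusion is drawn from it. The share within 500 bp of an exon was 35.6% at q of 1e-05, 36.1% with midpoints, 14.1% for peaks touching no exon, 35.5% in protein-coding hosts and 37.5% with 1 peak per host, and 19.1% to 35.9% with a replicate left out. The median intron length was 10868 bp with midpoints, 15524 bp for peaks touching no exon, 9774 bp in protein-coding hosts, 10281.5 bp with 1 peak per host and 10748 bp on the transcript with the longest coding sequence, and 11518.5 to 23957 bp with a replicate left out. Apart from alternatives that keep fewer peaks by construction, the cause was not tested. The repeat-masked comparison was not run, because the reference carries no masking. No paired analysis was possible because no input peaks were used here, which leaves 1 group. Without read numbers, the number of peaks sets only the counting error within these 2 lists, and peaks of 1 host are not independent.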
